A study of Mus musculus with 8 samples.

Results

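The 40 genes described here encode the machinery of mitosis: the mitotic cyclins and their kinase Cdk1, the Polo and Aurora kinases, the chromosomal passenger complex, the spindle checkpoint, kinetochore proteins, mitotic kinesins and the proteins of cytokinesis. They were taken by symbol from a fixed list, not by a cut on their measured levels. The list was chosen with earlier results of these data known. All 40 were found among the 43629 genes of the counts table. All 40 also passed the filter on low counts, so no member is missing from the tests. RNA was sequenced from 2 B cell lymphoma lines of Eμ-Myc mice on the C57BL/6 strain, #1.1 and #1.2, which carry a Myc transgene driven by the immunoglobulin heavy chain enhancer. Early passage cells of each line were exposed for 2 h to 250 nM JQ1, an inhibitor that displaces the bromodomain and extra-terminal (BET) proteins from acetylated chromatin, or to the solvent DMSO. Each of the 4 groups (JQ1 and DMSO in line 1.2, JQ1 and DMSO in line 1.1) held 2 libraries, 8 in all. Every group thus carries the Myc transgene, the labels do not say whether the lines come from different animals, and they describe no synchronisation of the cell cycle. Nor do they say whether the 2 libraries of a group were made from separate cultures. The p-values therefore reflect only how far these libraries differ, which could be a technical spread.

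As background, entry into mitosis is driven by Cdk1 bound to cyclin A or cyclin B. The spindle checkpoint then holds back Cdc20, the activator of the anaphase-promoting complex, until every kinetochore is attached, after which cyclin B and securin are destroyed, separase cuts cohesin and the cell divides. The genes of this machinery are transcribed in a wave late in the cell cycle, through promoters in which CCAAT boxes bound by NF-Y stand near a cell cycle homology region (CHR), an element read by the MuvB complex together with B-Myb and FoxM1. Dividing B lymphoma cells express the whole set.

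Because this promoter layout is the feature the set is best known for, the windows around the start sites were searched for it. RefSeq windows (build GRCm38.p6, from 250 bases before each start to 50 after) were held for 33 of the 40 members. The CHR was searched as TTTGAA or, in its other form, as TTTAAA. The NF-Y box was searched as CCAAT and the E-box bound by MYC as CACGTG. Both strands were read, and a motif counted whether or not it overlapped another. Of the 33 members, 29 (87.9%) had a CHR motif, against 22.1% of 8529 tested genes with a window and 30.6% of all 27025 genes of the table. CCAAT was found in 24 of 33 members (72.7%), against 43.6% of the tested genes and 41.1% of the table. Both stood together in 23 of 33 members (69.7%), against 9.29% of the tested genes. Among 100 other mitotic genes with a window, which are listed further on, 46 had a CHR motif, 58 had CCAAT and 32 had both. CACGTG was found in 3 of 33 members (9.09%), Anln, Espl1 and Ttk, against 12.4% of the tested genes. A match is a run of letters, not a measured binding site.

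The windows of the 6 members with the largest called fall after JQ1 that the table holds (Plk1, Nuf2, Kif4, Ccnb2, Anln and Ect2) and of the 2 with the largest called rise (Cenpf and Birc5) are printed below, since the results turn on these genes. They lie at chr7:122159185-122159484 (plus strand) for Plk1, chr1:169531415-169531714 (minus strand) for Nuf2, chrX:100625815-100626114 (plus) for Kif4, chr9:70421505-70421804 (minus) for Ccnb2, chr9:22389157-22389456 (minus) for Anln, chr3:27153829-27154128 (minus) for Ect2, chr1:189688037-189688336 (minus) for Cenpf and chr11:117848987-117849286 (plus) for Birc5. Each reads 5′ to 3′ on the gene's strand, and capitals mark both forms of the CHR motif and the NF-Y box in either orientation.
Plk1: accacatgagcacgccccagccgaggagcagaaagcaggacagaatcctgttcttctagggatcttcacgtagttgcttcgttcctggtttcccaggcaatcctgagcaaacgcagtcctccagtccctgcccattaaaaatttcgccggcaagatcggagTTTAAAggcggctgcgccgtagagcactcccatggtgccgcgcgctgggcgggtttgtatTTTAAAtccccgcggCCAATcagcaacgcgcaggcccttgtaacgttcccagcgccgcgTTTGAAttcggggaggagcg
Nuf2: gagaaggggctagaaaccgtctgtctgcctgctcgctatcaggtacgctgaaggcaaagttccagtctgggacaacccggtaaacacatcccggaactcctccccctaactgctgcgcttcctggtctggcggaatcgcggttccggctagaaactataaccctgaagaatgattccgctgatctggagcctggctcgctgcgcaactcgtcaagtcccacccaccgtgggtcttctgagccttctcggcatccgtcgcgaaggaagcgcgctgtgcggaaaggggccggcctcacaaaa
Kif4: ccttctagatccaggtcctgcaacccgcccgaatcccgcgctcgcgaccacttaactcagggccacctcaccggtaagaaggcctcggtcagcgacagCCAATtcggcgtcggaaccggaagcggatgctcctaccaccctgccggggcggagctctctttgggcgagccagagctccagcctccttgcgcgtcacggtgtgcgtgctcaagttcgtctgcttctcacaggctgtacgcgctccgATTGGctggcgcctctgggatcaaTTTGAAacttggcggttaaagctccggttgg
Ccnb2: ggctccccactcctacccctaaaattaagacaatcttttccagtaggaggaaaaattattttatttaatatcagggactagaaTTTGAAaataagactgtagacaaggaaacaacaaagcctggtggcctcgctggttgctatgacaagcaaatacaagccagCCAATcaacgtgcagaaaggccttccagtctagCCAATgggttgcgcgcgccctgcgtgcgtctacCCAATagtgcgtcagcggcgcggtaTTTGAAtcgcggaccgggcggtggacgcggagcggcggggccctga
Anln: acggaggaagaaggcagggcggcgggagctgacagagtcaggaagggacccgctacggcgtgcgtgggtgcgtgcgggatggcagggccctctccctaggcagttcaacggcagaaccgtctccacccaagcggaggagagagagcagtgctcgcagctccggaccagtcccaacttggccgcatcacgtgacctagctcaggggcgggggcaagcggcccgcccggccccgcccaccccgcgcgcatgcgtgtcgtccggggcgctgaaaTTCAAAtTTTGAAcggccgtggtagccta
Ect2: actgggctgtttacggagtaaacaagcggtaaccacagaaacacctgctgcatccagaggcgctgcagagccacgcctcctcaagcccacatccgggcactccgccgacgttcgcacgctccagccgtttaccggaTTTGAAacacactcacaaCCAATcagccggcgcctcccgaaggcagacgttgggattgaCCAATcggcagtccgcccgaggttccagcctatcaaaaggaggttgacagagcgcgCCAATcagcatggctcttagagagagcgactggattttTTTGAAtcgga
Cenpf: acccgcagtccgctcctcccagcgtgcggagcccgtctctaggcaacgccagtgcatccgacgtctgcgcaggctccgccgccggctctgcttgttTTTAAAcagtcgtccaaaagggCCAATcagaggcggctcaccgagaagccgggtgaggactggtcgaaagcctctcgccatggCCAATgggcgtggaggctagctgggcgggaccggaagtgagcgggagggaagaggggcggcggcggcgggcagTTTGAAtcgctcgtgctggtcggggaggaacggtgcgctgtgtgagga
Birc5: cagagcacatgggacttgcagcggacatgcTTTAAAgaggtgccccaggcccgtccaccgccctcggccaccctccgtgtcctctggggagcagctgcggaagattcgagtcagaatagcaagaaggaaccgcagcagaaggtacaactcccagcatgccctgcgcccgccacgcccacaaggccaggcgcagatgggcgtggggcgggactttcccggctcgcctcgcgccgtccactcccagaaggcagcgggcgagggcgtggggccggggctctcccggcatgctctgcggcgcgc
Plk1 held 3 CHR motifs, the 2 TTTAAA beginning 89 and 29 bases before the start and a TTTGAA beginning 30 bases after it, with 1 CCAAT between them. Ccnb2 held 3 CCAAT, beginning 87, 54 and 21 bases before the start, followed by a TTTGAA 4 bases after it, and a further TTTGAA 167 bases before it. Nuf2, which fell, held none of the motifs in this window, and Cenpf, which rose, held 2 CHR motifs and 2 CCAAT boxes. A CHR motif was found in 15 of 16 members called lower, 6 of 8 called higher and 8 of 9 not called. CCAAT was found in 13, 4 and 7 of these members. Within 100 bases before the start to 50 after it, a CHR motif was found in 15 of 16 members called lower, 4 of 8 called higher and 8 of 9 not called. These shares rest on few genes and no test was made of them. Windows were held for 16 of the 22 members called lower, 8 of the 8 called higher and 9 of the 10 not called. Those without a window were Spc24, Foxm1, Tpx2, Incenp, Ccna2 and Aurkb, all called lower, and Kif20a, which was not called.

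**Figure D1:**
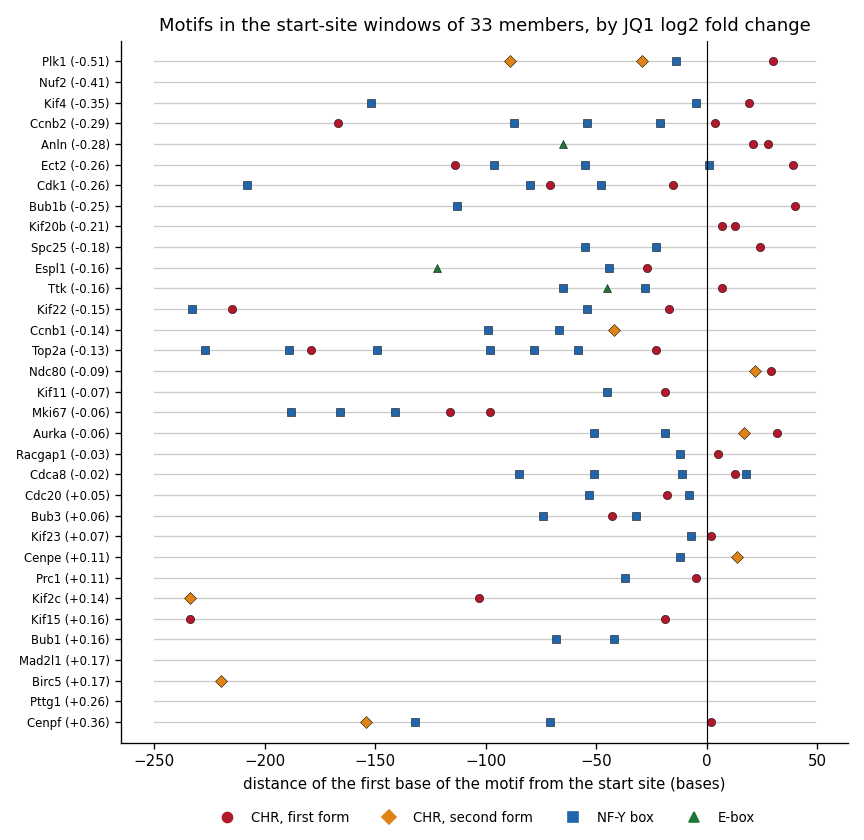
Each row is the start-site window of a member, ordered by its averaged log2 fold change (in brackets), with the distance in bases from the start on the x axis. Circles and diamonds mark the first base of the 2 forms of the CHR motif (first form with G, second with A at the fourth base), squares the CCAAT box bound by NF-Y and triangles the E-box. CHR motifs are present in 29 of 33 rows, in 15 of 16 members called lower and 6 of 8 called higher.

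Each library held between 10347453 and 13049877 reads assigned to genes. CPM here is the usual depth-scaled read count, with library sizes adjusted by the trimmed mean of M values (TMM). The libraries held B lineage RNA: 11 of 12 B lineage markers passed the filter, among them Cd79a and Pax5, and their summed level was 4590 to 5135 CPM in the JQ1 libraries and 5898 to 6219 CPM in the DMSO libraries. Of the 11, 10 were called lower with JQ1 and Ighm higher. None of 10 T cell, 6 NK cell or 6 erythroid markers passed, with at most 1.08 CPM summed over a list. Myeloid markers summed to 9.13 to 12.6 CPM with JQ1 and 3.80 to 5.46 CPM with DMSO, most of it Cd68, with Lyz2, Ly6g, S100a8 and S100a9 at 0 reads. Stromal markers summed to 18.8 to 24.3 CPM with JQ1 and 87.4 to 98.7 CPM with DMSO, nearly all of it Pecam1, with Col1a1, Col1a2, Col3a1, Pdgfra and Pdgfrb at 0 reads. Reads assigned to no gene were 14.0 to 14.4% with JQ1 and 12.3 to 13.1% with DMSO. The non-coding RNA Gm42418 varied between libraries: it stood at 1296 and 2644 CPM in line 1.2 with JQ1 against 383 and 341 CPM with DMSO, and at 475 and 493 CPM in line 1.1 with JQ1 against 361 and 977 CPM with DMSO. The part of these differences in the results on the mitotic genes was not tested, other than by a fit with Gm42418 as a covariate. In line 1.2 both JQ1 libraries lay above both DMSO libraries in Gm42418. There, and so in part in the average over lines, that fit cannot tell the drug from the covariate. Calls gained or lost with it below are to be read with this limit.

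Mitotic genes were abundant. The mean over the 8 libraries was at least 100 CPM for 29 of the 40 members, against 18.8% of all 12413 genes tested, and each member had at least 273 reads in every library except Pttg1, which had as few as 38. Per kilobase of exon, the highest levels were those of Mki67, whose protein coats mitotic chromosomes (116 CPM per kb), Top2a, the topoisomerase that disentangles sister chromatids (114 CPM per kb), and Cdc20 (99.1 CPM per kb). The lowest were those of Ndc80 (7.19 CPM per kb) and Pttg1, the securin gene (2.26 CPM per kb). Summed over the 40 members, the level was 7659 and 7694 CPM in line 1.2 with JQ1 against 8191 and 8067 CPM with DMSO. In line 1.1 it was 7706 and 7704 CPM with JQ1 against 7975 and 8341 CPM with DMSO. All 4 JQ1 libraries thus lay below all 4 DMSO libraries. In a bulk sample, fewer cells in mitosis and less of these transcripts per cell cannot be told apart.

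The first comparison asked how the mitotic genes respond to 2 h of BET inhibition, averaged over both lines. Most members were called, and all by small amounts. Of the 40 members, 22 fell and 8 rose, and 10 did not pass (edgeR quasi-likelihood test, adjusted p under 0.05 over all 12413 genes). Over all genes tested, 31.3% were called lower and 30.7% higher, and 62% in either direction. Among the 2333 genes that averaged 100 CPM or more, where counting error is smallest, 29.3% were called lower and 42.5% higher, 71.8% in all. Of the 29 members at that level, 15 fell, 7 rose and 7 did not pass. The median log2 change was -0.14 over the members and 0.0036 over all genes tested, while the median absolute change was smaller in the members (0.16 against 0.25). Genes that averaged 100 CPM or more had a median absolute change of 0.15. The median absolute change of the 29 members at that level was not taken, so the 0.16 of all 40 members is not a like comparison. The median log2 change was 0.044 over all genes that averaged 100 CPM or more and -0.074 over the 29 members among them. The changes called ran from -0.51 (Plk1) to -0.074 (Kif11) among the fallers and from 0.11 (Cenpe) to 0.36 (Cenpf) among the risers. No member reached an averaged fold change of 1.5 in either direction, against 21.2% of all genes tested, and none of the 40 passed a test against that fold change (edgeR, 0 also at an unadjusted p under 0.05), against 11.7% of all genes. These 2 shares of all genes were not taken at the members' level of expression. In both lines at once, the 2 JQ1 libraries lay wholly below the 2 DMSO libraries for 21 members and wholly above for 12, against 29.8% and 28.8% of all genes tested. Kif11, Cenpe and Prc1 were the calls nearest to the threshold, and 10, 7 and 6 of the alternative fits at the same threshold lost them.

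**Figure D2:**
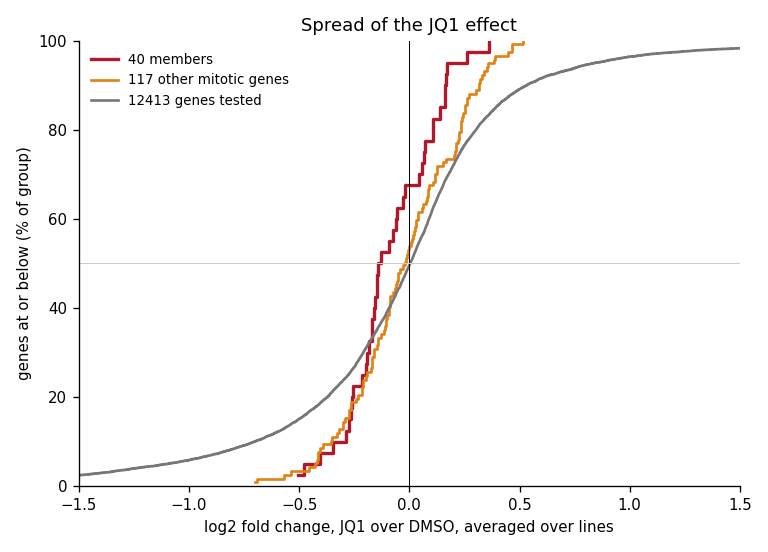
Cumulative share of genes (y axis, % of each group) at or below a given log2 fold change of JQ1 over DMSO averaged over the lines (x axis), for the 40 members, the 117 other mitotic genes and the 12413 genes tested. The curve of the members is steep, from -0.51 to 0.36, and crosses 50% at about -0.14, while the curve of all genes reaches far beyond both ends.

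The cyclins and Cdk1 moved one way. All 4 fell, with a median log2 change of -0.22. The counts by role, here and below, are of few genes. They stand beside 31.3% of all genes tested called lower and 30.7% called higher. Cdk1, the kinase of mitotic entry, stood at 148 and 147 CPM in line 1.2 with JQ1 against 182 and 173 CPM with DMSO. The values of line 1.1 were 154 and 146 CPM with JQ1 against 183 and 174 CPM with DMSO. The groups did not overlap in either line, and averaged over the lines Cdk1 changed by -0.26 ± 0.036 (SE, edgeR adjusted p = 9.86e-07). Ccnb2, which encodes cyclin B2, stood at 91.6 and 90.6 CPM in line 1.2 with JQ1 against 116 and 104 CPM with DMSO. Line 1.1 had 92.9 and 90.3 CPM with JQ1 against 110.4 and 116 CPM with DMSO. Its change was -0.29 ± 0.041 (adjusted p = 1.98e-06 in the edgeR test). Ccna2, the cyclin A2 gene, changed by -0.17 ± 0.032 and Ccnb1, the cyclin B1 gene, by -0.14 ± 0.041. Of the 50-base stretches of Ccnb1 transcripts, 23.4% also occur in other annotated genes, pseudogenes of Ccnb1 among them, so its count is less certain than the others. Ccnb1 was at -0.093 without line 1.1 DMSO replicate 1 and at -0.20 without replicate 2, still called. With the Gm42418 covariate it was at -0.011 and lost its call. The exons of Ccna2 overlap those of Exosc9 on the opposite strand over 12.5% of their bases. Exosc9 was at 0.035 ± 0.046 and did not pass.

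Plk1, the Polo kinase that acts at every stage of mitosis, had the largest fall of the 40. It stood at 112 and 114 CPM in line 1.2 with JQ1 against 149.9 and 146 CPM with DMSO. In line 1.1 it was at 116 and 113 CPM with JQ1 against 172 and 180.4 CPM with DMSO. The JQ1 libraries of both lines lay close together, and the DMSO libraries of line 1.1 were the highest. Averaged over the lines Plk1 changed by -0.51 ± 0.036 (SE, adjusted p = 1.15e-11 by edgeR), so that its level fell by 29.6%, and it kept between -0.55 and -0.49 in every alternative fit. Aurka, the Aurora kinase of the spindle poles, was at -0.056 ± 0.055 and did not pass (edgeR adjusted p = 0.389). Aurka was called lower without line 1.1 DMSO replicate 1 (-0.11) and with the Gm42418 covariate (-0.20), but was at -0.0083 without line 1.1 DMSO replicate 2 and at 0.0069 without line 1.2 DMSO replicate 1.

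**Figure D3:**
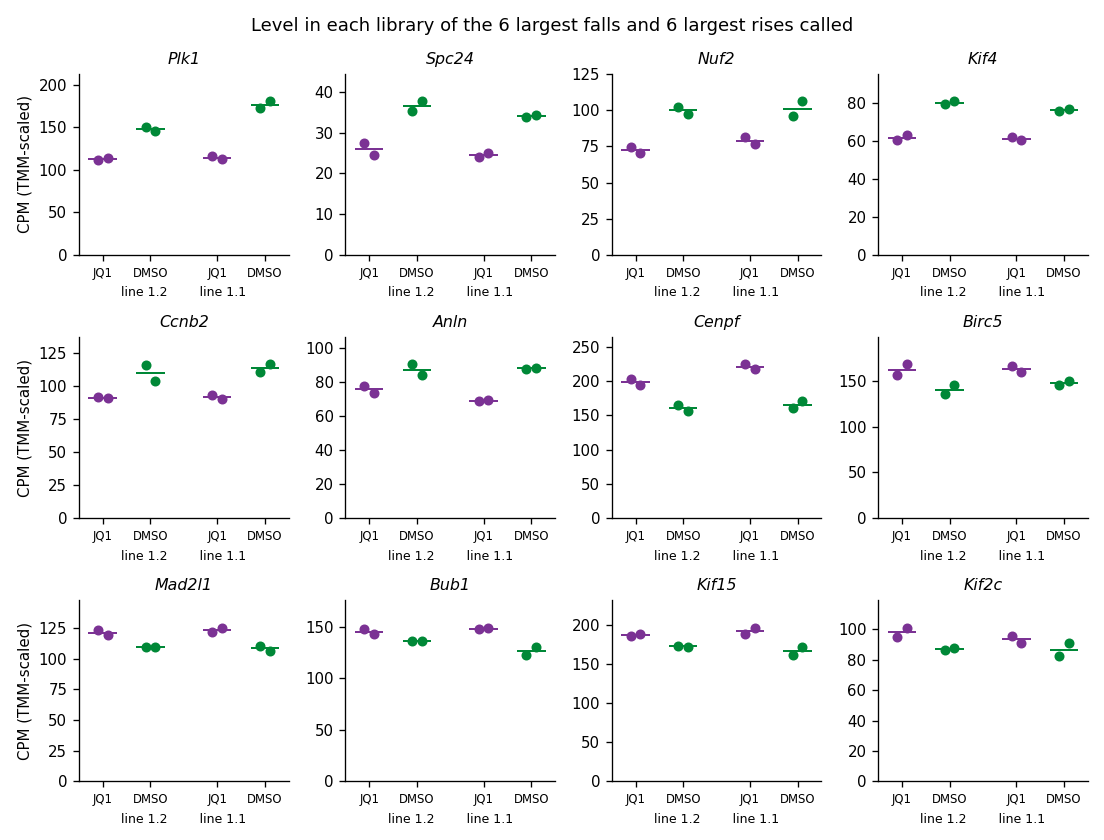
Level in each library (y axis, TMM-scaled CPM from 0) of the 6 members with the largest called fall and the 6 with the largest called rise, JQ1 left of DMSO within each line. Points are libraries and bars are means of 2. The JQ1 points of Plk1 lie at 112 to 116 CPM against 146 to 180.4 CPM with DMSO, and those of Cenpf at 195 to 224 CPM against 157 to 170.2 CPM.

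The chromosomal passenger complex, which corrects faulty attachments and then directs cytokinesis, was split. Incenp, its scaffold, changed by -0.17 ± 0.035 and Aurkb, its kinase, by -0.14 ± 0.034, both called lower. Birc5, which encodes survivin, was called higher at 0.17 ± 0.038 (SE, edgeR adjusted p = 0.000333). It stood at 156 and 168 CPM in line 1.2 with JQ1 against 135 and 145 CPM with DMSO. The values of line 1.1 were 166 and 159 CPM with JQ1 against 146 and 149 CPM with DMSO. Every JQ1 library of Birc5 lay above every DMSO library. Cdca8, which encodes borealin, was at -0.020 ± 0.035 and did not pass.

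The spindle checkpoint was split as well, 2 lower, 2 higher and 1 not called. Bub1b, which encodes BubR1, a subunit of the mitotic checkpoint complex, changed by -0.25 ± 0.032, and Ttk, which encodes the kinase Mps1, by -0.16 ± 0.046. Mad2l1, which encodes Mad2, the protein that sequesters Cdc20, was called higher at 0.17 ± 0.037. It stood at 123 and 119.5 CPM in line 1.2 with JQ1 against 109.9 and 109 CPM with DMSO. Line 1.1 had 122 and 125 CPM with JQ1 against 110.1 and 107 CPM with DMSO, again with no overlap. Bub1, the kinase that recruits the checkpoint to kinetochores, was called higher at 0.16 ± 0.036. It stood at 148 and 143 CPM in line 1.2 with JQ1 against 136 and 136 CPM with DMSO, and at 147 and 149 CPM in line 1.1 with JQ1 against 123 and 129.9 CPM with DMSO. Bub3, the shared partner of Bub1 and BubR1, was at 0.059 ± 0.033 and did not pass (edgeR adjusted p = 0.129).

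Of the genes of anaphase onset, Espl1, which encodes separase, changed by -0.16 ± 0.035 and was called lower. Its inhibitor securin, encoded by Pttg1, was at 0.26 ± 0.14 and did not pass (edgeR adjusted p = 0.115). With 4.84 and 5.14 CPM in line 1.2 with JQ1 against 3.70 and 4.72 CPM with DMSO, and 4.87 and 4.92 CPM in line 1.1 with JQ1 against 4.33 and 3.63 CPM with DMSO, Pttg1 had the lowest counts and the widest error of the 40 members. Cdc20 was at 0.045 ± 0.034 and did not pass (edgeR adjusted p = 0.254), and 10.4% of its 50-base stretches also occur in other annotated genes.

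At the kinetochore, the subunits of the Ndc80 complex, which grips the microtubule, changed unequally. Spc24 changed by -0.48 ± 0.060 (adjusted p = 1.87e-07 by edgeR) and Nuf2 by -0.41 ± 0.044 (adjusted p = 1.98e-08 by edgeR). Spc24 stood at 27.6 and 24.6 CPM in line 1.2 with JQ1 against 35.2 and 37.7 CPM with DMSO. In line 1.1 it was at 24.0 and 24.9 CPM with JQ1 against 33.8 and 34.2 CPM with DMSO. Nuf2 stood at 74.6 and 70.6 CPM in line 1.2 with JQ1 against 102 and 97.5 CPM with DMSO. The values of line 1.1 were 81.5 and 76.6 CPM with JQ1 against 96.2 and 106 CPM with DMSO. For both genes the JQ1 libraries were the lowest of their line. The other subunits changed less, Spc25 by -0.18 ± 0.053 and Ndc80 by -0.091 ± 0.051, of which Ndc80 did not pass (edgeR adjusted p = 0.121), though with library totals as scaling it did (-0.13). The call of Spc25 was lost with DESeq2 and with the Gm42418 covariate (-0.13). The differences between the subunits' changes were not tested. Per kilobase of exon, Nuf2 averaged 13.9, Spc25 12.05, Spc24 11.8 and Ndc80 7.19 CPM.

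Cenpf, a large protein of the outer kinetochore that binds microtubules and accumulates in G2, had the largest called rise. It stood at 204 and 195 CPM in line 1.2 with JQ1 against 165 and 157 CPM with DMSO. Line 1.1 had 224 and 217 CPM with JQ1 against 160.0 and 170.2 CPM with DMSO. Averaged over the lines Cenpf changed by 0.36 ± 0.036 (SE, adjusted p = 4.43e-09 by edgeR), a level higher by 28.6%, which stayed between 0.32 and 0.38 in every alternative fit. Cenpe, the kinesin that moves chromosomes to the spindle equator, was called higher at 0.11 ± 0.037 (edgeR adjusted p = 0.0155).

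Of the 7 kinesin and spindle genes, 5 fell and 2 rose. Kif4, which encodes a chromosome-bound kinesin, stood at 60.6 and 63.0 CPM in line 1.2 with JQ1 against 79.4 and 81.1 CPM with DMSO. In line 1.1 it was at 62.1 and 60.4 CPM with JQ1 against 75.8 and 77.3 CPM with DMSO. Its change of -0.35 ± 0.042 (SE, edgeR adjusted p = 1.35e-07) was the largest of the kinesins. The exons of Kif4 overlap those of Pdzd11 on the opposite strand over 15.1% of their bases, and Pdzd11, with a mean of 13.8 CPM against 69.97 CPM for Kif4, was called lower too (-0.47). Kif20b, a kinesin of late mitosis, changed by -0.21 ± 0.035, Tpx2, the activator of Aurora A on the spindle, by -0.19 ± 0.033, Kif22, a kinesin that pushes chromosome arms outward, by -0.15 ± 0.040 and Kif11, the kinesin that separates the spindle poles, by -0.074 ± 0.032. The risers were Kif15, which shares the pole-separating task of Kif11, at 0.16 ± 0.035, and Kif2c, which depolymerises microtubules at centromeres, at 0.14 ± 0.042. Kif15 stood at 187 and 188 CPM in line 1.2 with JQ1 against 174 and 172 CPM with DMSO, and at 189 and 197 CPM in line 1.1 with JQ1 against 162 and 173 CPM with DMSO. Kif2c stood at 95.2 and 101 CPM in line 1.2 with JQ1 against 86.4 and 87.9 CPM with DMSO, and at 95.4 and 91.1 CPM in line 1.1 with JQ1 against 82.4 and 90.7 CPM with DMSO. The libraries of Kif15 and Kif2c were thus higher with JQ1 in both lines, by a small margin for Kif2c in line 1.1. The call of Kif2c was lost with library totals as scaling (0.097) and with the Gm42418 covariate (0.048).

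Among the genes of the midzone and cytokinesis, 2 fell, 1 rose and 3 did not pass. Anln, which encodes anillin, the scaffold of the cleavage furrow, stood at 78.0 and 73.9 CPM in line 1.2 with JQ1 against 90.4 and 84.3 CPM with DMSO. The values of line 1.1 were 68.9 and 69.4 CPM with JQ1 against 88.0 and 88.3 CPM with DMSO. Its change was -0.28 ± 0.042 (SE, edgeR adjusted p = 3.89e-06). Ect2, the exchange factor that activates RhoA at the furrow, changed by -0.26 ± 0.041. Racgap1 and Kif23, which together form centralspindlin, were at -0.030 ± 0.036 and 0.067 ± 0.035 and did not pass, nor did Kif20a, a kinesin of the midzone, at 0.071 ± 0.035, which passed without line 1.1 DMSO replicate 2 (0.084). The exons of Kif20a overlap those of Cdc23 on the opposite strand over 29.3% of their bases, and Cdc23, at a mean of 79.4 CPM, was called lower with JQ1 (-0.24). Prc1, which bundles the midzone microtubules, was called higher at 0.11 ± 0.036 (edgeR adjusted p = 0.0138). Exon bases of Prc1 overlap Rccd1 on the opposite strand by 11.1%. Rccd1, at a mean of 14.2 CPM, was called lower (-0.37).

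Foxm1, the transcription factor that drives many of these genes, stood at 101 and 109 CPM in line 1.2 with JQ1 against 126 and 119.6 CPM with DMSO. Line 1.1 had 109 and 106 CPM with JQ1 against 115 and 129 CPM with DMSO. Its change was -0.20 ± 0.042 (SE, edgeR adjusted p = 0.000255), with no overlap between treatments in either line. Top2a changed by -0.13 ± 0.029 and was called lower. Mki67 was at -0.061 ± 0.039 and did not pass (edgeR adjusted p = 0.175). Without line 1.1 DMSO replicate 1, Mki67 was at -0.12 and passed, as it did with library totals as scaling (-0.10) and with the Gm42418 covariate (-0.19). Without line 1.1 DMSO replicate 2 it was at -0.00055 (edgeR adjusted p = 0.987), and it did not pass with DESeq2, nor when any 1 of the 6 other libraries was left out.

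**Figure D4:**
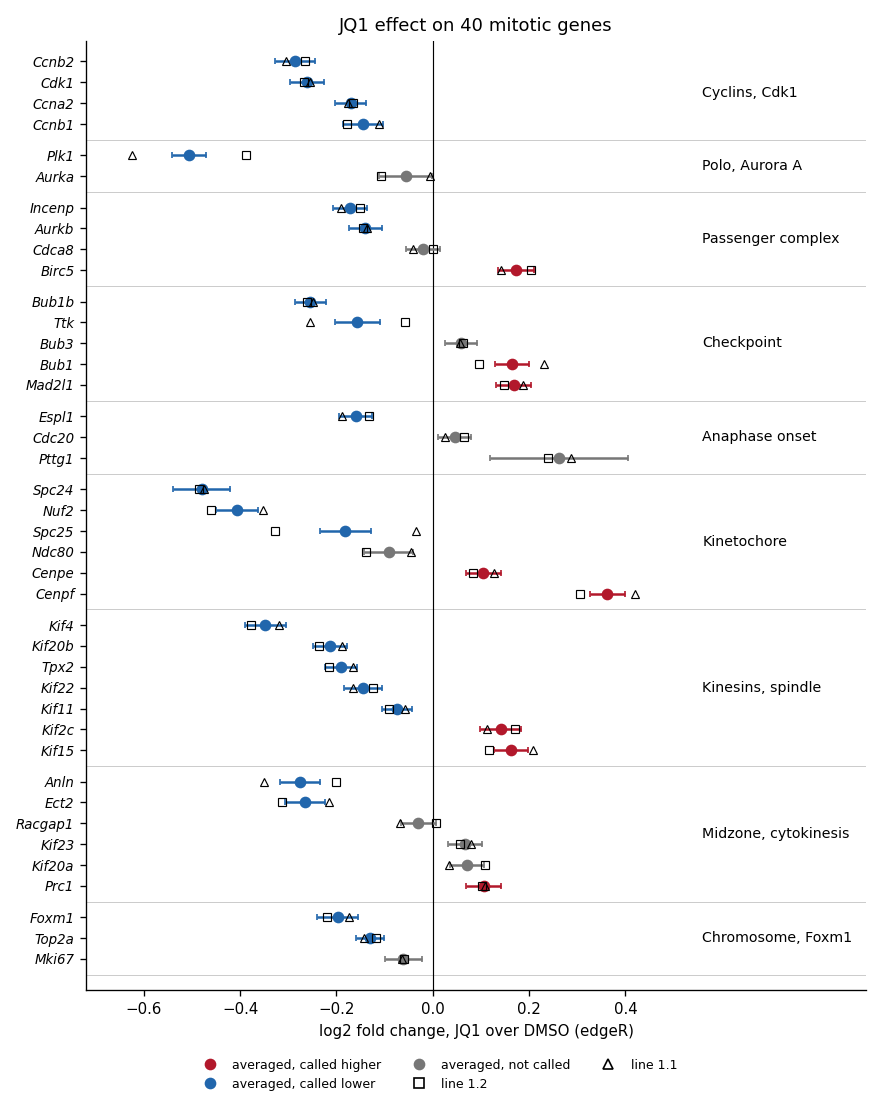
Log2 fold change of JQ1 over DMSO (x axis) of the 40 members, grouped by role. Filled circles are the change averaged over the lines with its SE, coloured by call, and open squares and triangles are the changes in line 1.2 and line 1.1. The cyclins with Cdk1 stand to the left of 0. So do Plk1 with Aurka, and Foxm1 with Top2a and Mki67, though Aurka and Mki67 were not called. The checkpoint, the passenger complex, the kinesins and the kinetochore hold both fallers and risers.

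The members' changes had little relation to exon length, gene length or level per kilobase of exon. Across the 40 genes, the Spearman coefficient of the averaged log2 change was -0.059 with CPM per kilobase, 0.23 with exon length and -0.12 with the length of the gene on the chromosome. Genes of the same libraries are not independent, so these are descriptions with no p. No coefficient was taken with CPM itself. The median change was -0.074 over the 29 members at 100 CPM or more, against -0.14 over all 40.

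Other genes of the mitotic apparatus, taken from a list of 117 genes that are no members, were called in both directions. This list too was chosen with earlier results of these data known. All 117 passed the filter, and 36 rose (30.8%), 43 fell (36.8%) and 38 did not pass, beside 30.7% higher and 31.3% lower over all genes tested, against which the counts of the lists below are also to be read, with a median log2 change of -0.020. Among 31 genes of the centromere and outer kinetochore 12 rose and 7 fell, and the 3 with the smallest p, Knl1 (0.39), Zwilch (0.47) and Mis12 (0.45), all rose. Knl1 and Mis12 encode proteins of the outer kinetochore, as do the genes of the Ndc80 complex. Of 18 genes of the anaphase-promoting complex and its cofactors, 6 rose and 10 fell, led by the subunit genes Cdc26 (-0.69), Cdc27 (-0.46) and Anapc1 (-0.33). Cohesin and condensin genes were divided, 4 higher and 6 lower of 18, with the cohesin genes Rad21 (-0.30) and Stag2 (-0.21) lower and the condensin gene Ncaph (0.26) higher. Of 22 spindle and centrosome genes, 7 rose and 8 fell, with Sass6, which builds the centriole (-0.57), lower and Ckap2 (0.39) and Spag5 (0.26) higher. Of 15 genes of mitotic entry, 4 rose and 4 fell, with Cks1b, a small Cdk-binding subunit (0.34), higher and the kinase gene Pbk (-0.41) and Arpp19 (-0.29), which encodes an inhibitor of the phosphatase PP2A, lower.

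The list that holds the regulators of the CHR and the CCAAT box was called lower more often than higher. It also holds DREAM partners such as E2f4 and Rbl1, and a link to the motifs was not tested. Of 13 genes of MuvB, its DREAM partners and NF-Y, 8 fell and 3 rose, with a median log2 change of -0.19. Mybl2, which encodes B-Myb, changed by -0.39 ± 0.036 (SE, edgeR adjusted p = 1.26e-09) and Lin9, a MuvB subunit gene, by -0.54 ± 0.061. Nfya, the NF-Y subunit gene among the 3 with the smallest p, was higher at 0.36 ± 0.037. A share of 61.5% lower in 13 genes stands beside 31.3% in all genes tested.

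The next comparisons took each line by itself. In line 1.2, 4 members rose and 19 fell, against 24.4% of all genes tested called higher and 25% called lower (49.4% in either direction). In line 1.1, 6 rose and 19 fell, against 24.9% higher and 26.1% lower (51% in either direction). The JQ1 libraries lay wholly above the DMSO libraries for 13 members in line 1.2 and wholly below for 24, against 37.2% and 38% of all genes, and for 12 and 21 members in line 1.1, against 36.7% and 36.6%. No member passed a test against a fold change of 1.5, against 8.72% of all genes in line 1.2 and 9.54% in line 1.1, although the log2 change of Plk1 in line 1.1 (-0.62) was itself beyond that size. The lines share no library. Set against each other over the 40 members, their log2 changes gave r = 0.90 (Pearson) and rho = 0.88 (Spearman), a description with no p, beside 0.85 and 0.83 over all genes tested. In 38 of 40 members the sign was the same, as in 84.1% of all genes tested. Mad2l1, Birc5 and Cenpf were called higher in both lines and 17 members were called lower in both, with no opposite calls and 12 members called in neither. Of all genes tested, 19.5% were called higher in both lines, 20.7% lower in both, 39.7% in neither and 0.0403% in opposite directions. The counts of both lines changed when 1 library was left out, those of line 1.1 as given at the end. The count in line 1.2 rested in part on single libraries: without line 1.2 DMSO replicate 1, 12 members were called lower and 1 higher (39.7% of all genes called in either direction), and without line 1.2 JQ1 replicate 2, 14 were called lower and 1 higher (37.7% of all genes). Without line 1.2 DMSO replicate 2, 18 were called lower and 2 higher (38.2% of all genes). It was 7 higher and 21 lower when either DMSO library of line 1.1 was left out (53% of all genes without replicate 1, 52.9% without replicate 2). When Gm42418 was added as a covariate, 11 members were called lower and 0 higher in line 1.2 by edgeR, while the share of all genes called there was 23.4%.

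**Figure D5:**
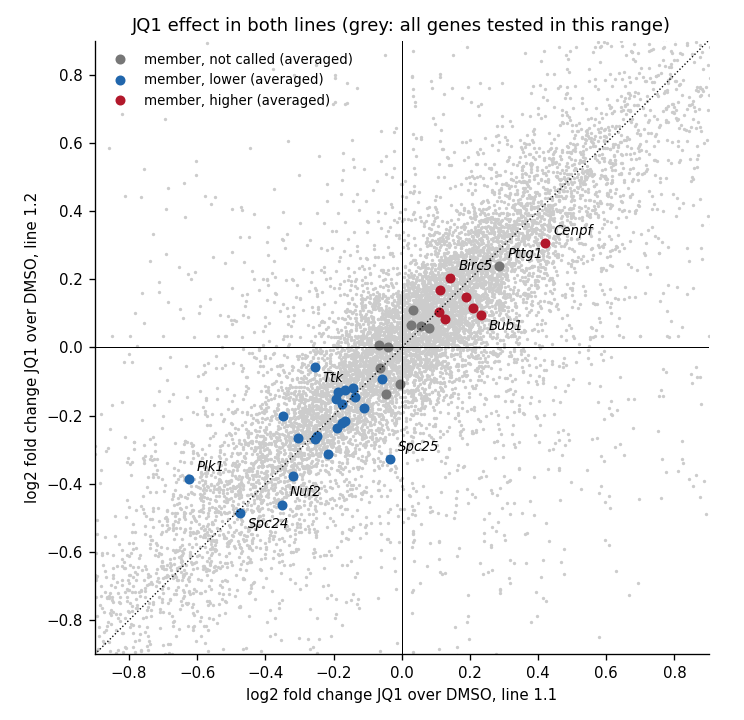
Log2 fold change of JQ1 over DMSO in line 1.2 (y axis) against line 1.1 (x axis) for the 40 members, coloured by the call of the averaged effect, over the genes tested that fall in this range (grey). The dotted line marks equal changes. The members lie along it with r = 0.90, and Plk1, Spc25 and Ttk lie farthest from it by p.

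Whether the response of a mitotic gene differs between the lines was tested as the interaction of line and drug. No member passed by edgeR, DESeq2 or limma-voom, against 0.113% of all genes tested by edgeR (0.0806% higher, 0.0322% lower). At an unadjusted p under 0.05 there were 3 members by edgeR, 1 by DESeq2 and 3 by limma-voom, against 8.06% of all genes by edgeR. The 3 were Plk1, Spc25 and Ttk. Plk1 changed by -0.39 in line 1.2 and by -0.62 in line 1.1, a difference of 0.24 ± 0.072 (SE, edgeR adjusted p = 0.344). Without line 1.1 DMSO replicate 1, the interaction of Plk1 passed (edgeR adjusted p = 0.014), the only one of the 40 members to do so, in a fit that called 3.59% of all genes. The 2 DMSO libraries of line 1.1 differed most among replicates, with a chi-square per degree of freedom of 4.48 against 1.42 to 2.28 in the other groups. Spc25 was at 34.3 and 33.3 CPM in line 1.2 with JQ1 against 42.2 and 42.6 CPM with DMSO, and at 39.6 and 36.8 CPM in line 1.1 with JQ1 against 40.03 and 38.2 CPM with DMSO, where the groups overlapped. The difference of its changes was -0.29 ± 0.11 (SE, edgeR adjusted p = 0.474). Ttk was at 53.3 and 53.1 CPM in line 1.2 with JQ1 against 54.8 and 56.0 CPM with DMSO, and at 47.4 and 48.96 CPM in line 1.1 with JQ1 against 56.1 and 59.2 CPM with DMSO, with no overlap in either line. For Ttk the difference was 0.20 ± 0.093 (SE, edgeR adjusted p = 0.612).

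The last comparison set the lines side by side without drug. In DMSO the mitotic genes stood at nearly the same level: the median log2 difference of line 1.2 minus line 1.1 was -0.0024 over the members, with a median absolute difference of 0.049, against 0.11 over all genes tested. The members were more abundant than most genes (median 154 against 26.7 CPM). No figure was taken over genes at their level, so a likeness particular to them is not shown. Of the 40 members, 2 were called lower in line 1.2 and 0 higher, against 3.17% lower and 3.59% higher over all genes tested by edgeR (6.77% in all). At an unadjusted p under 0.05 there were 6 members, against 20.2% of all genes. The libraries of line 1.2 lay wholly below those of line 1.1 for 10 members and wholly above for 9, against 23.1% and 23.7% of all genes. Plk1 was at 149.9 and 146 CPM in line 1.2 against 172 and 180.4 CPM in line 1.1, a log2 difference of -0.25 ± 0.049 (SE, edgeR adjusted p = 0.0017). Kif20a was at 176 and 168 CPM in line 1.2 against 189.6 and 198 CPM in line 1.1, a difference of -0.17 ± 0.050 (SE, edgeR adjusted p = 0.0376). The overlap of Kif20a with Cdc23 given above applies here too. The call of Kif20a was lost without any 1 of 7 libraries, line 1.1 DMSO replicate 1 being the exception, and that of Plk1 without line 1.2 DMSO replicate 2 (-0.23, edgeR adjusted p = 0.0571). Without line 1.1 DMSO replicate 1, Incenp (-0.19) and Cdc20 (-0.15) were called lower in line 1.2 as well, and without line 1.1 DMSO replicate 2, Ccnb1 (-0.15) was called lower and Mki67 (0.14) higher. Those fits called 10.3% and 8.71% of all genes between the lines.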

How the data were processed

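RNA-seq was done on 2 Eμ-Myc lymphoma lines with 2 libraries in each of 4 groups, taken from the labels. The authors deposited raw read counts for each Ensembl gene, not normalised, with a column for each library. Per the labels' protocols, RNA came from a Nucleospin kit and libraries from a TruSeq kit. The submitters' processing notes name cutadapt 1.7, FastQC, Bowtie2, TopHat, HTSeq and limma, and the build GRCm38 (mm10). The strand setting and annotation release were not given in the sources used here. How reads over a gene and its antisense partner were assigned is therefore not known. The 5 summary lines (no gene 12.3 to 14.4% of reads, ambiguous 1.54 to 1.67%) entered neither library sizes nor tests. Libraries held 10347453 to 13049877 gene reads.

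From these counts, edgeR 4.0.16 in R 4.3.3 tested 12413 genes kept by filterByExpr (minimum count 10, minimum total 15), scaled by TMM, with a model of 4 group means over all 8 libraries (4 residual degrees of freedom). Contrasts were tested two-sided with the quasi-likelihood F test and Benjamini-Hochberg adjustment over all genes, threshold 0.05. Fold changes are relative to each library's counts, so a change in total RNA per cell would not show. Symbols and exon lengths are from GENCODE mouse release M21 (GRCm38). Alternatives were 3 scalings, DESeq2 1.42.0, limma-voom 3.58.1, other filters and thresholds, an additive model, 4-library fits, a replicate block, a Gm42418 covariate and each library left out. The fit was tested on simulated data in which 200 genes changed 1.5-fold or 2-fold. For the averaged effect it called 80.6% of those changed 1.5-fold in the right direction, and 0.109% of unchanged genes. Changes as small as the members' averaged changes were not simulated, so the test does not bear on calls of that size.

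The members, the lists, the tests and the alternatives were chosen with earlier results of these data known. Every member is accounted for. Values in every library are given for the 6 largest called falls and rises, Foxm1, Cdk1, Plk1, and, by rule, the members with the smallest p or largest difference in the other comparisons. Of each list of other mitotic genes up to 3 with the smallest p are named. Values of further members and of genes that overlap a member were added after seeing the data.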

Additional observations from a re-analysis of the deposited data

How the results depend on the processing

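Of the averaged JQ1 effect, the members called lower (22) numbered 20 to 24 and those called higher (8) 5 to 9 over all fits but 1. With library totals as scaling 5 were called higher (24 lower), and with the Gm42418 covariate 5 (21 lower). A test against a fold change of 1.5 gave 0 higher and 0 lower on average and 0 and 0 in each line, and 0 lower between the lines. In line 1.1 the counts stayed within 1.5 times under all other settings. In line 1.2 the members called higher (4) were 2 with library totals, 2 with DESeq2, 2 at a threshold of 0.01, 7 in a fit of only the 4 libraries compared and 0 with the Gm42418 covariate, which also gave 11 lower in place of 19 and cut the share of all genes called there to 23.4%, against 49.4% without it. With that covariate the changes of Ccnb1 (0.12) and Kif2c (-0.040) in line 1.2 turned sign and did not pass. The cause of these differences was not tested. With the covariate it cannot be told apart from the drug in line 1.2, where Gm42418 was higher in both JQ1 libraries. Between the lines in DMSO, 1 member in place of 2 was called lower with library totals, DESeq2, a threshold of 0.01, the Gm42418 covariate and only the 4 libraries compared.

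With 1 library left out at a time, the averaged counts ran from 6 to 9 higher and 21 to 24 lower, those of line 1.1 from 4 to 8 and 14 to 21, those of line 1.2 from 1 to 7 and 12 to 21, those of the interaction from 0 to 1 and 0 to 0, and those between the lines in DMSO from 0 to 1 and 0 to 4. A lone library left in a group was assumed to vary like the others. The replicate numbers did not pair the libraries (the correlation of same-numbered deviations ran from -0.030 to 0.030), and with the replicate block the averaged counts were 8 higher and 22 lower, with 5 higher in line 1.2. Searching only from 100 bases before the start, 27 of 33 members held a CHR motif, 4 of 8 of those called higher in place of 6. Pttg1 had the fewest reads of the members.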
